A study of Arabidopsis thaliana with 6 samples.

Results

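The RefSeq gene table (assembly TAIR10.1) classes as pseudogenes 989 Arabidopsis thaliana loci that had a probe set annotated to no other locus. Of these, 17 read above 5 on the log2 scale on average over 6 arrays. These 17 loci are described here in esd7-1 and Ler seedlings. Membership was chosen by the mean over both genotypes, so the level of these loci is a description, and the locus AT1G59265 was left out by rule. That locus averaged 4.16, so the level alone would also have kept it out. Transcripts were measured on Affymetrix expression arrays in whole seedlings aged 14 days, grown in short days and collected 8 h after dawn. The groups were the esd7-1 mutant, with 3 arrays, and the wild-type accession Landsberg erecta (Ler), with 3 arrays, each array from its own pool of plants, and no treatment is named for either. The question is how transcript levels of the mutant compare with those of its wild type. ESD7, the catalytic subunit of DNA polymerase epsilon, had no named probe set and was not analysed here, so the mutant label was not checked against its level.

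A pseudogene is a locus that resembles a gene but is no longer thought to encode an intact protein. In Arabidopsis many such loci are remnants of transposable elements or of duplicated genes, and DNA methylation and small RNAs are known to keep many of them silent. Some are transcribed, either from promoters of their own or from those of a neighbour. RefSeq separates the class transcribed_pseudogene, for which transcripts are on record, from the class pseudogene. Of the 17 loci, 15 were in the class pseudogene, and AT4G22020 and AT2G18115 were in the class transcribed_pseudogene. The gene table gives no description for any of the 17, so no family or role is assigned to them here. The table describes the Columbia genome, while the plants were in the Ler background, and sequence differences between the accessions at these loci were not analysed here.

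One array of each genotype stood apart, esd7-1 replicate 3 and Ler replicate 2: their bacterial poly-A control RNAs averaged 6.53 and 7.29, against 5.74 to 5.89 on the other 4. The median over all 22746 plant probe sets lay between 4.81 and 4.89 on every array. The lower quartile was 3.94 on esd7-1 replicate 3 and 3.76 to 3.84 on the others. The upper quartile was 6.56 on esd7-1 replicate 3 and 6.71 to 6.83 on the others, so that array was the narrowest at both ends. The first replicates of both genotypes shared a high 25S rRNA control, at 8.99 in esd7-1 and 9.66 in Ler, against 4.69 to 5.77 on the others. On these first replicates the 17 loci read -0.51 to 0.30 relative to the other 4 arrays, with a median of -0.08, against -0.04 for probe sets in their range of level. The part of this control in the results was not tested. Leaf markers were bright: the mean level of the 2 measured genes of 9, RCA and PSAN, was 13.06 to 13.30 in esd7-1 and 13.23 to 13.36 in Ler. Of 7 root markers 3 were measured (PYK10, EXPA7 and EXPA18), with mean levels of 6.24 to 7.35 in esd7-1 and 6.29 to 7.0 in Ler. None of 5 flower and seed markers was measured.

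Pseudogene loci as a class read dim. Their median level was 3.53, against 4.77 for 12293 protein-coding loci, and 1.72% of them exceeded a level of 5, against 46.1% of the protein-coding loci. For the class pseudogene 15 of 923 exceeded that level, and for the class transcribed_pseudogene 2 of 66. The 17 loci therefore form the bright end of a dim class, but they do not stand high on the array: their means ran from 5.04 to 6.26, or from percentile 52.6 to 69.1 of all plant probe sets.

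**Figure D1:**
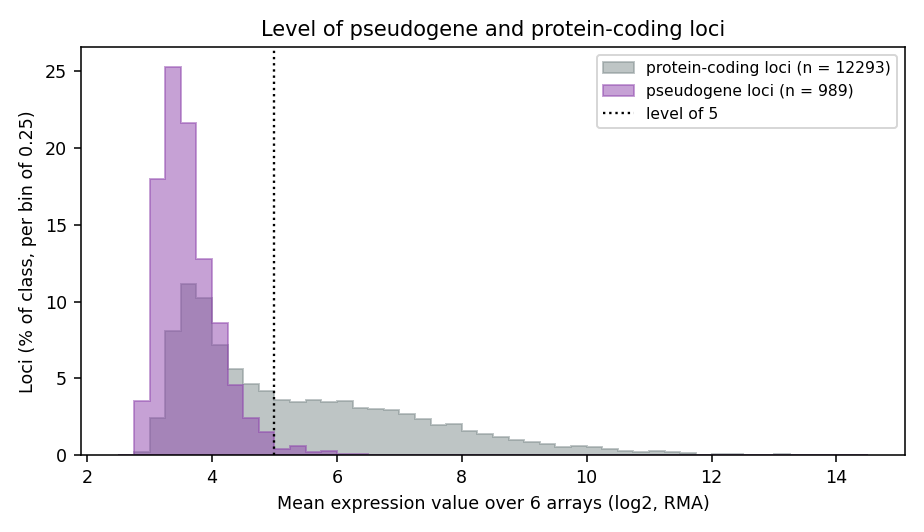
Distribution of the mean level over 6 arrays (x axis, log2 expression value) for 989 pseudogene loci and 12293 protein-coding loci (y axis, percent of the class per bin of 0.25), with the level of 5 as a dotted line. The pseudogene loci pile up around their median of 3.53, and 1.72% of them lie to the right of the line.

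Between esd7-1 and Ler none of the 17 loci passed in limma, where p-values were adjusted over all plant probe sets by the Benjamini-Hochberg method with a threshold of 0.05. No probe set on the array passed either (0%), and the smallest adjusted p among the 17 was 0.846. The loci read between 0.31 lower and 0.47 higher in the mutant on the log2 scale, with a median of 0.09, against a median of 0.01 over all plant probe sets. The esd7-1 mean was above the Ler mean for 12 loci and below it for 5, and 52.0% of all probe sets had a higher esd7-1 mean. At an unadjusted p under 0.05 in limma there was 1 locus, AT2G12300, where 5.78% of all probe sets reached that p. The same locus was the 1 whose genotypes did not overlap, where 11.3% of all probe sets did not overlap. The first share is near the background and the second is not above it. The count at the unadjusted p was 0 without esd7-1 replicate 1 (4.19% of all probe sets), esd7-1 replicate 3 (6.73%) or Ler replicate 2 (4.00%). It was 2 without esd7-1 replicate 2 (10.2% of all probe sets) or without Ler replicate 1 (5.39%). The count without overlap was 5 without Ler replicate 3, where 16.3% of all probe sets did not overlap, 3 without esd7-1 replicate 2 (28.8% of all), and 2 without esd7-1 replicate 1 (18.3%), Ler replicate 1 (22.8%) or Ler replicate 2 (20.0%). In seedling RNA a lower level in all cells and fewer cells with the transcript cannot be told apart.

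**Figure D2:**
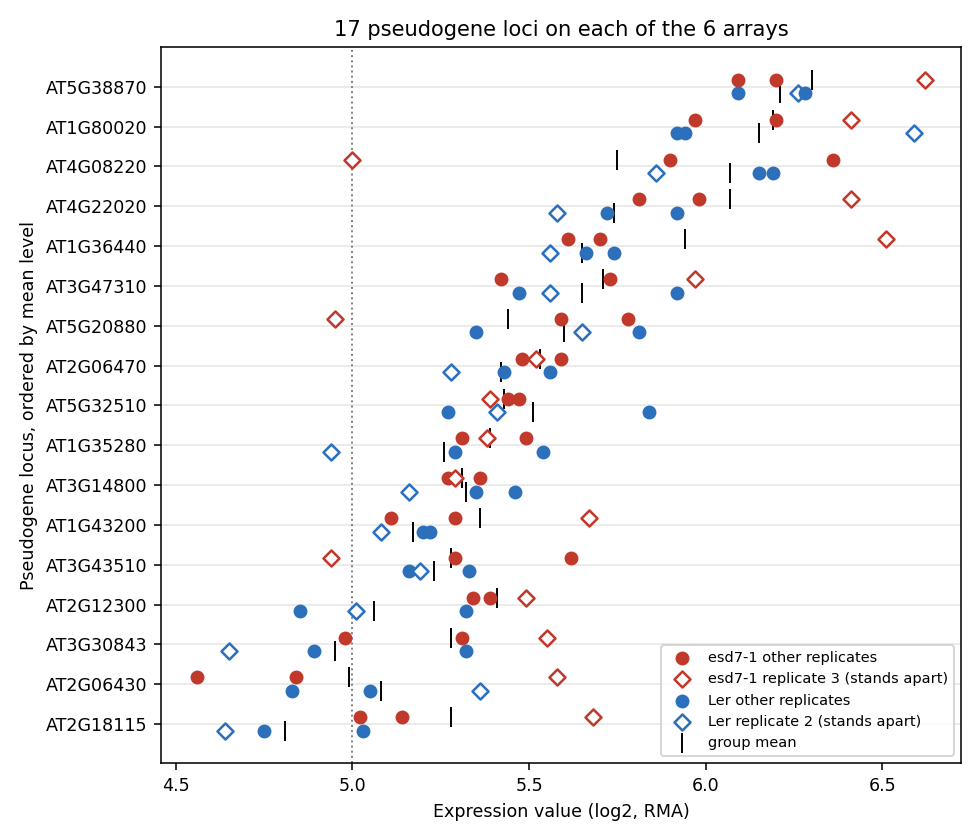
Expression value (x axis, log2) of each of the 17 pseudogene loci (y axis, ordered by mean level) on the 6 arrays, with esd7-1 in red, Ler in blue, open diamonds for the arrays that stood apart and a black tick for each group mean. The genotypes overlap at every locus but AT2G12300, and the open red diamond of esd7-1 replicate 3 is the highest point at 9 loci.

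AT2G18115, one of the transcribed pseudogenes, had the largest difference among the 17. It read 5.14, 5.02 and 5.68 on esd7-1 replicates 1, 2 and 3, and 4.75, 4.64 and 5.03 on the Ler arrays. Only the lowest mutant array and the highest Ler array met, at 5.02 and 5.03. The group means (± SD, n = 3) were 5.28 ± 0.35 for the mutant and 4.81 ± 0.20 for Ler, which differ by 0.47 on the log2 scale (standard error 0.20, limma adjusted p 0.846). With a limma term for the arrays that stood apart the standard error was 0.19, the unadjusted p 0.0404 and the adjusted p 0.436. With the replicate number as a block, its unadjusted p in limma was 0.0135 and its adjusted p 0.895. An unadjusted p under 0.05 was reached by 11.1% of all probe sets with the term and by 5.02% with the block. The block treats arrays of the same number as pairs, for which the replicate numbers did not meet the bar as a whole. Since its Ler mean lies below 5, this locus entered the set through its mutant values.

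AT2G12300 was measured by a probe set with the suffix _x_at, which marks probes that can also bind other transcripts. It read 5.34, 5.39 and 5.49 on the esd7-1 arrays and 5.32, 5.01 and 4.85 on the Ler arrays. Every mutant array was above every Ler array, but the nearest of them, at 5.34 and 5.32, differed by less than the spread within Ler. The genotypes differed by 0.35 (log2, standard error 0.14), and limma gave an unadjusted p of 0.0459 and an adjusted p of 0.846. The value was 0.48 between the arrays that stood apart and 0.28 among the rest. Since the genotypes do not overlap at this locus, the sign had to be the same in both sets.

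AT4G22020, the other transcribed pseudogene and among the brightest loci, read 5.98, 5.81 and 6.41 in esd7-1 and 5.72, 5.58 and 5.92 in Ler. AT3G30843 read 5.31, 4.98 and 5.55 in esd7-1 and 5.32, 4.65 and 4.89 in Ler. AT1G36440 read 5.61, 5.70 and 6.51 in esd7-1 and 5.66, 5.56 and 5.74 in Ler. At all of them esd7-1 replicate 3 was the highest array and Ler replicate 2 the lowest, and the remaining arrays of both genotypes were mixed. The log2 differences were 0.33 for AT4G22020, 0.33 for AT3G30843 and 0.29 for AT1G36440, with standard errors of 0.18, 0.22 and 0.24, and each had an adjusted p of 0.846 in limma. AT3G30843 averaged 4.95 in Ler and, like AT2G18115, was above 5 through its mutant values. At AT1G43200, which read 5.11, 5.29 and 5.67 in esd7-1 and 5.22, 5.08 and 5.20 in Ler, the difference of 0.19 likewise came with one high mutant array.

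The loci that read lower in esd7-1 were led by AT4G08220, which also varied most over the arrays (SD 0.48). It read 5.90, 6.36 and 5.0 in esd7-1 and 6.15, 5.86 and 6.19 in Ler. The value of 5.0 on esd7-1 replicate 3 was the lowest of the 6, and of the other mutant arrays one lay inside the range of Ler and one above it. It differed by -0.31 on the log2 scale (standard error 0.33), and without esd7-1 replicate 3 it was 0.063. AT5G20880 read 5.59, 5.78 and 4.95 in esd7-1 and 5.35, 5.65 and 5.81 in Ler. There too esd7-1 replicate 3 was the lowest of the 6, while the other mutant arrays lay inside the range of Ler. The difference of -0.16 at AT5G20880 became 0.082 without esd7-1 replicate 3. AT2G06430, on a probe set with the suffix _x_at, read 4.56, 4.84 and 5.58 in esd7-1 and 4.83, 5.36 and 5.05 in Ler, a difference of -0.09. With means of 4.99 in esd7-1 and 5.08 in Ler, it was above 5 through its Ler values. Here both arrays that stood apart were above the other 4, by 0.65 on average, the largest rise on those arrays among the 17 loci.

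The remaining 8 loci differed by at most 0.14 between genotypes. AT5G38870, the brightest of all, read 6.20, 6.09 and 6.62 in esd7-1 and 6.09, 6.26 and 6.28 in Ler, a difference of 0.09. AT1G80020, the next in level, read 6.20, 5.97 and 6.41 in esd7-1 and 5.94, 6.59 and 5.92 in Ler. Its highest arrays were those that stood apart, one of each genotype, and the genotype difference was 0.04. AT2G06470 and AT3G14800 were the steadiest, with ranges over the 6 arrays of 0.31 and 0.30, and differed by 0.11 and -0.02. For AT3G14800 the 95% interval of the difference ran from -0.28 to 0.25, and for AT2G06470 from -0.15 to 0.37, the narrowest bounds the arrays give for these loci. AT3G47310 differed by 0.06, AT3G43510 by 0.06, AT5G32510 by -0.07 and AT1G35280 by 0.14. The sign at AT5G38870, AT3G47310 and AT1G35280 turned among the other 4 arrays alone, to -0.040, -0.12 and -0.015.

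**Figure D3:**
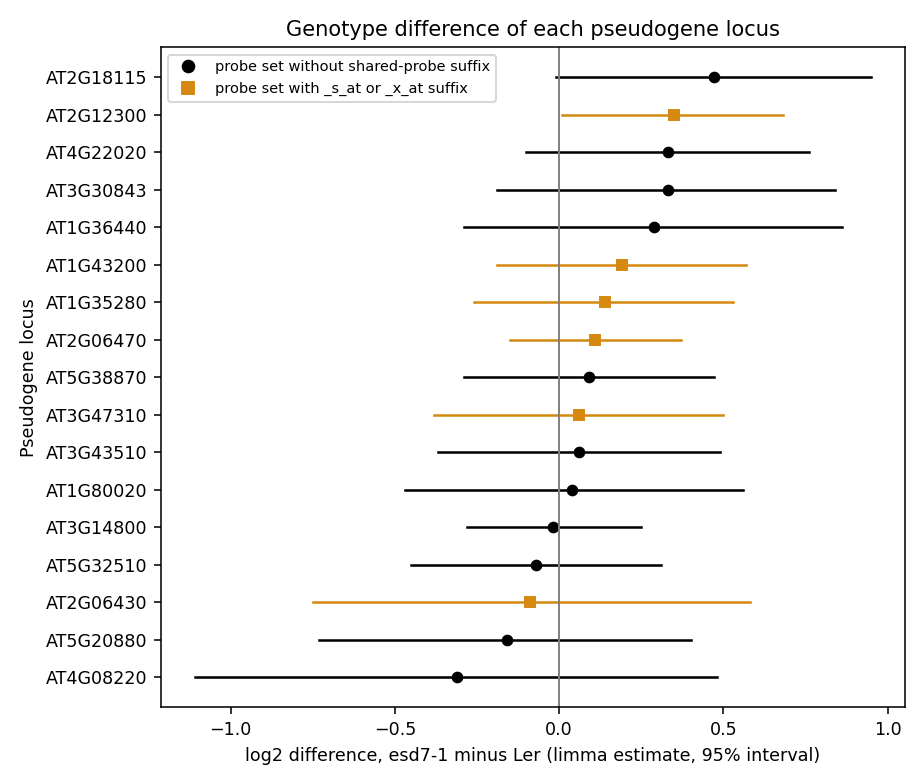
Log2 difference, esd7-1 minus Ler, of each pseudogene locus (x axis) with its 95% limma interval, ordered by difference, with orange squares for probe sets whose suffix marks shared probes. The interval of AT2G12300 lies above 0, at 0.01 to 0.68, and the intervals of the other 16 loci include 0.

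At many of the 17 loci the extreme values lay on the arrays that stood apart. The array of esd7-1 replicate 3 was the highest of the 6 at 9 loci and the lowest at 3. Ler replicate 2 was the lowest at 8 loci and the highest at 1. The same counts were not made over all plant probe sets, so these are not shown to be particular to the 17 loci. Between these arrays, esd7-1 minus Ler ran from -0.86 to 1.04 with a median of 0.36, and was above 0 at 12 loci. Among the other 4 arrays the same difference ran from -0.24 to 0.28 with a median of -0.01, above 0 at 8 loci and below it at 9. Over the 3779 plant probe sets in the same range of level, the medians were -0.19 between the arrays that stood apart and 0.00 among the other 4. At AT2G18115 the difference was 1.04 between the arrays that stood apart and 0.19 among the others, and at AT1G36440 it was 0.95 and -0.04. At AT3G30843 the values were 0.90 and 0.04, and at AT4G22020 they were 0.83 and 0.07. AT4G08220 and AT5G20880 went the other way, at -0.86 and -0.70 between the arrays that stood apart, and at -0.04 and 0.11 among the others. The 3 root markers read higher on the arrays that stood apart by a median of 0.86, while the median of the 17 loci was 0.03 higher there. The part of the poly-A controls, the quartiles and the root markers in these values was not tested.

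**Figure D4:**
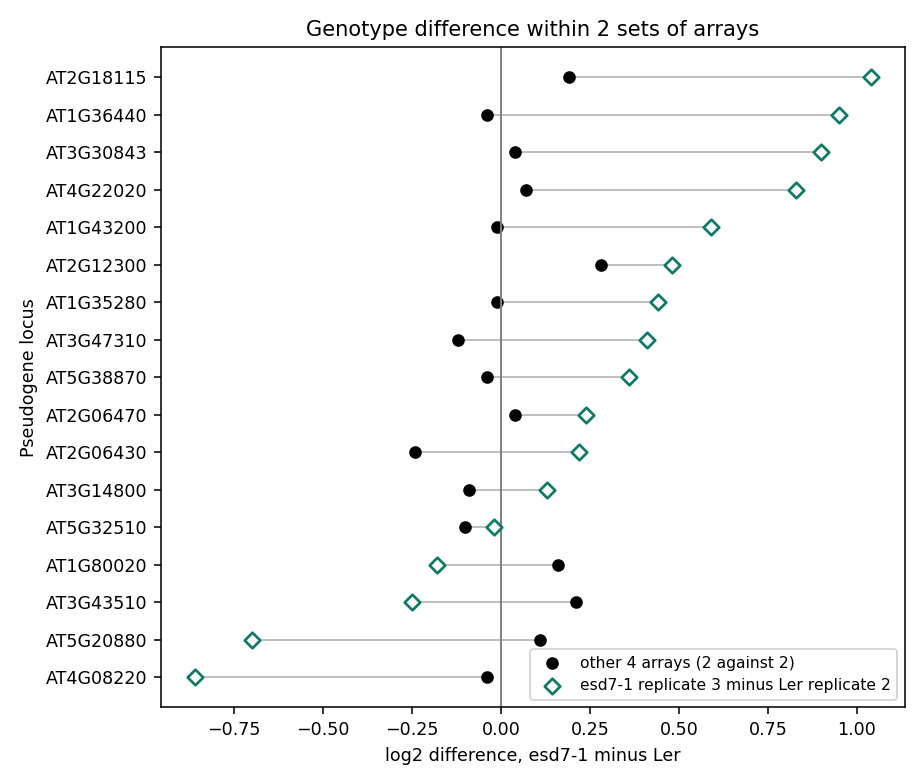
Log2 difference, esd7-1 minus Ler, of each pseudogene locus (x axis) among the other 4 arrays (black circles, 2 against 2) and between the arrays that stood apart (open diamonds, esd7-1 replicate 3 minus Ler replicate 2). The circles stay between -0.24 and 0.28, and the diamonds spread from -0.86 to 1.04.

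Genotype differences on these arrays also followed the level of a probe set. The median difference over all plant probe sets was 0.08 at levels of 4 to 4.5, 0.03 at 4.5 to 5, -0.07 at 5 to 6.3 and -0.11 above 6.3. Between the arrays that stood apart these medians were 0.15, 0.03, -0.19 and -0.22, and among the other 4 arrays 0.04, 0.03, 0.00 and -0.05. The median of 0.09 for the 17 loci therefore stands beside -0.07 for the probe sets in their range of level (3779 probe sets, of which 37.6% read higher in esd7-1). After a second quantile normalization the median of the 17 was 0.17 and 13 of them read higher. Over all plant probe sets the median was then 0.00 and 49.6% read higher. Among the other 4 arrays alone the median of the 17 was -0.01 and 8 read higher, against 0.01 and 52.2% over all plant probe sets. The median SD within genotypes was 0.25 for the 17 loci and 0.25 for all probe sets in their range of level.

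**Figure D5:**
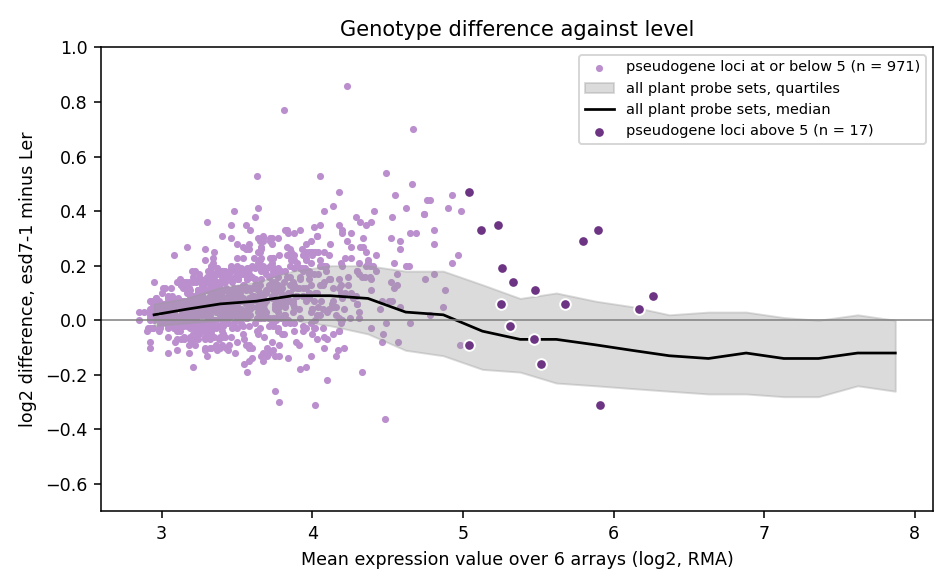
Log2 difference, esd7-1 minus Ler (y axis), against mean level (x axis, log2) for the 17 pseudogene loci above 5 (dark), the 971 other pseudogene loci without AT1G59265 (light), and all plant probe sets as a running median with quartiles (line and grey band). The line runs from above 0 at low levels to below 0 above a level of 5, and the 17 dark points lie on both sides of it, between -0.31 and 0.47.

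What the probes can bind limits the identity of some loci. The suffixes _s_at and _x_at, which mark probe sets shared between transcripts, were carried by 6 of the 17 loci (AT3G47310, AT2G06470, AT1G35280, AT1G43200, AT2G12300 and AT2G06430), or 35.3%. The share was 18.9% among the 971 dimmer pseudogene loci and 4.66% among all plant probe sets. For those 6 the signal may include other copies, and their median difference was 0.12, against 0.06 for the 11 loci on probe sets without such a suffix. Of the 11, none reached an unadjusted p under 0.05 in limma, and AT2G18115 came nearest at 0.0525.

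By their place in the gene table the loci fell into different surroundings. Of the 17, 8 lay between protein-coding loci on both sides, among them AT1G80020, AT4G08220, AT4G22020, AT5G20880 and AT2G18115. Another 5 lay between pseudogenes on both sides, namely AT1G36440, AT2G06470, AT5G32510, AT1G43200 and AT3G30843, and 4 had a protein-coding locus on one side. AT5G38870 overlapped the protein-coding locus AT5G38865 in the table, so its reading may belong to either. Of 34 neighbours, 10 were measured. None of the 10 passed in limma. Of the 8 loci with a measured neighbour, 4 had neighbours that differed in the same direction and 4 in the opposite one. AT4G22020 differed by 0.33 and AT4G22030 beside it by 0.20, AT3G30843 by 0.33 and AT3G30846 by 0.17. AT1G36440 differed by 0.29 and AT1G36430 beside it by 0.12, AT2G06470 by 0.11 and AT2G06480 by 0.02. In the opposite direction, AT4G08220 differed by -0.31 and its neighbours AT4G08210 and AT4G08230 by 0.19 and 0.15. AT5G20880 differed by -0.16 and its neighbours AT5G20870 and AT5G20885 by 0.19 and 0.40. AT3G43510 and AT3G47310 each differed by 0.06, beside AT3G43520 at -0.09 and AT3G47320 at -0.03. The pseudogenes next to AT1G36440, AT3G47310, AT2G06470 and AT3G30843 that were measured read at 3.32 to 3.96, well below the loci they adjoin.

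At the edge of the rule the loci just above a mean level of 5 were AT3G30843, AT2G18115 and AT2G06430, at 5.12, 5.04 and 5.04. Just below it were AT1G64560 at 4.99, AT1G69950 at 4.98 and AT5G34790 at 4.97, with log2 differences of 0.40, -0.09 and 0.24. AT1G64560, also a transcribed pseudogene, read 4.95, 4.92 and 5.70 in esd7-1 and 4.75, 4.69 and 4.92 in Ler, again highest on esd7-1 replicate 3 and lowest on Ler replicate 2.

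Genes that act on the silencing of such loci, in either direction, were few among the named probe sets. Of 41 genes of DNA methylation and demethylation, small RNA silencing and replication-linked silencing, 3 were measured, and none passed in limma (1 read higher and 2 lower, with a median of -0.02). The DNA glycosylase DEMETER (DME), which removes methylated cytosine and so acts against silencing, differed by 0.19, with means (± SD, n = 3) of 5.71 ± 0.33 for the mutant and 5.53 ± 0.25 for Ler. TEBICHI (TEB), a polymerase-helicase, differed by -0.09. Of 14 genes of nonsense-mediated and other RNA decay, the pathways that remove transcripts with early stop codons or stalled ribosomes, 5 were measured and none passed in limma. All 5 read lower in esd7-1, with a median of -0.13, at levels of 5.30 to 6.62, where lower readings prevailed on the whole array: 37.5% of the probe sets at 5 to 6.3 and 28.0% of those above 6.3 read higher in esd7-1. The list median was -0.40 under array weights, -0.060 without esd7-1 replicate 1, -0.21 without esd7-1 replicate 2, -0.27 without Ler replicate 1 and -0.048 without Ler replicate 2. HBS1, a partner of PELOTA in the rescue of stalled ribosomes, differed by -0.46 (standard error 0.30), and PELOTA (PEL1) by -0.31 (standard error 0.24). Between the arrays that stood apart HBS1 differed by -1.22 and PEL1 by -0.66, and among the other 4 by -0.09 and -0.14. The remaining measured genes of the decay list differed by -0.17, 0.06 and 0.07 among those 4 arrays, so not all 5 read lower there. None of the 8 measured genes of the silencing and decay lists had an unadjusted p under 0.05 in limma.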

How the data were processed

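RNA of 6 seedling pools was measured on 1 array each, and the titles gave each array its genotype and number. The authors deposited 1 log2 value per probe set and array, made with RMA per the submitters' processing notes, which also list limma and give no version. RMA removes background, equalizes the arrays by quantiles and compresses values near the floor. All value columns belonged to a sample, and no 2 arrays held identical values. Of 22746 plant probe sets, 13513 carried 1 gene, 503 several and 8730 none in the platform annotation, and 13436 matched the RefSeq gene table (TAIR10.1) by gene identifier. The table served for names, classes and gene order only. Loci of the classes pseudogene and transcribed_pseudogene were taken, 989 in all, each with 1 probe set.

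The test was two-sided limma 3.58.1 (R 4.3.3; lmFit and eBayes with genotype alone), adjusted over all plant probe sets, after a check on simulated data. Precision is limited by the number of arrays. The members, lists and settings were chosen with earlier results of these data known. Named are loci with an unadjusted p under 0.05, the 6 largest differences per direction, the 8 brightest, the 6 most variable, 3 on each side of the level, and 2 genes per list. AT1G35280 and AT3G43510 fall outside this rule and complete the set, and neighbours are named by their place alone. A planned grouping by gene description was not made, since the table holds none. The arrays that stood apart are those whose mean poly-A control exceeded the median by over 0.5.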

Additional observations from a re-analysis of the deposited data

How the results depend on the processing

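Under any setting the smallest adjusted p in limma was 0.190, for DME under array weights. This covers the 17 loci, the 3 just below the level and the 2 named genes of each of the silencing and decay lists. No setting brought any of the 17 loci past the adjusted threshold. Probe sets past it on the whole array numbered 0, but 33 under array weights, 4 when the arrays that stood apart had a term, 4 when both were dropped, and 0 to 1 when single arrays were dropped. The count of loci at an unadjusted p under 0.05 in limma, 1 as reported, was 2 with the replicate block (5.02% of all probe sets) and 2 with the term (11.1%). It was 0 with a trended and robust variance, median centring or dim probe sets left out, where no share over all probe sets was counted. It was also 0 with both arrays that stood apart dropped (7.49% of all probe sets), and 0 to 2 when single arrays were dropped. The count without overlap, also 1, was 0 with median centring or a second quantile normalization, where no share over all probe sets was counted. It was 2 with both arrays left out (33.3% of all probe sets, at 2 against 2), and 1 to 5 when single arrays were dropped. Both counts were 0 with shared probe sets left out, again without a share over all probe sets. That setting removed AT2G12300 itself and kept 11 loci, so it is no check on that locus. With a mean level above 4 these counts were 14 and 24 of 182 loci (5.78% and 11.3% of all probe sets), and above 6 they were 0 and 0 of 2. The median of the loci kept its sign except with both arrays left out, at -0.010, and was 0.053 to 0.18 when single arrays were dropped. The replicate numbers did not meet the bar for pairs as a whole: what remained after subtracting the genotype mean correlated at 0.54 for replicates 1, -0.41 for replicates 2 and -0.60 for replicates 3, although both replicates 1 also shared the high 25S rRNA control. Across numbers, esd7-1 replicate 2 and Ler replicate 3 correlated at 0.63, and esd7-1 replicate 3 and Ler replicate 2 at 0.59. The remaining combinations ran from -0.52 to 0.26. Arrays may thus share variation across genotypes under other numbers. Each locus had 1 probe set, so averaging probe sets could change nothing. With the class pseudogene alone, a choice made after seeing the data, 15 loci gave 0, 1 and 1 in the 3 counts.

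Of 29 values whose sign turned, none passed, and the cause was not tested. A second quantile normalization gave AT3G14800 0.022. Array weights gave AT5G38870 -0.005, AT1G36440 -0.017, AT1G43200 -0.026 and AT1G69950 0.047. Both arrays left out gave AT5G38870 -0.040, AT1G36440 -0.045, AT3G47310 -0.12, AT5G20880 0.11, AT1G43200 -0.010, AT1G35280 -0.015 and TEB 0.035. When single arrays were dropped the ranges were AT5G38870 -0.065 to 0.20, AT1G80020 -0.072 to 0.26, AT4G08220 -0.62 to 0.063, AT3G47310 -0.075 to 0.20, AT5G20880 -0.33 to 0.082, AT5G32510 -0.19 to 0.093, AT1G35280 -0.022 to 0.28, AT3G14800 -0.098 to 0.052, AT3G43510 -0.11 to 0.23, AT2G06430 -0.38 to 0.13, AT1G69950 -0.20 to 0.018 and TEB -0.26 to 0.028. Levels near the middle of the array leave room for background signal, so a small difference does not show that a transcript was detected and unchanged.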

Other observations

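The pseudogene loci below the level of 5 were looked at after the data were seen. The 39 loci at levels of 4.5 to 5 had a median log2 difference of 0.24 between esd7-1 and Ler, with 92.3% of them higher in the mutant, where the median of all 1925 plant probe sets at those levels was 0.03 and 54.9% were higher. Among the 4 arrays that did not stand apart the median of these 39 loci was 0.09, and between esd7-1 replicate 3 and Ler replicate 2 it was 0.48. At levels of 4 to 4.5, 126 pseudogene loci had medians of 0.15 on all arrays, 0.03 among the 4 and 0.28 between the arrays that stood apart, and all 2825 plant probe sets at those levels had 0.08, 0.04 and 0.15. Of the 971 pseudogene loci at or below 5, none passed the limma test, and the smallest adjusted p was 0.733. An unadjusted p under 0.05 in limma was found at 25 of them, or 2.57%, against 5.78% of all plant probe sets. Their median SD over the 6 arrays was 0.12, against 0.19 for all plant probe sets. No share was counted for probe sets of the same level, so these percentages do not compare like with like. The genotypes did not overlap at 10.3% of the 971 loci (93 higher in esd7-1 and 7 lower), against 11.3% of all plant probe sets.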
